A study of Homo sapiens with 4 samples.

Results

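Cyclin-dependent kinases (CDKs) drive the cell cycle, and the 10 genes described here encode proteins that hold it back. They are the CIP/KIP inhibitors CDKN1A (p21), CDKN1B (p27) and CDKN1C (p57), the INK4 inhibitors CDKN2A (p16, and ARF from another reading frame), CDKN2B (p15), CDKN2C (p18) and CDKN2D (p19), and the RB family of RB1 (pRB), RBL1 (p107) and RBL2 (p130). They were chosen by symbol, and each of the 10 was found by its Ensembl identifier among the 20348 genes of the deposited table. The INK4 proteins bind CDK4 and CDK6 and block their pairing with D-type cyclins, whereas the CIP/KIP proteins bind cyclin-CDK complexes more broadly. The RB proteins bind E2F transcription factors and keep their targets silent until CDKs phosphorylate them. RBL2 is known as the main RB protein of resting cells, where it sits with E2F4 in the repressive DREAM complex, and RBL1 is itself a known E2F target. CDKN1A is a classical target of p53 and is also induced in monocyte differentiation.

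The samples were 4 RNA libraries, 1 per condition, from K562 (a line from chronic myeloid leukemia) and THP-1 (a line of acute monocytic leukemia). Both had spent 72 h in DMSO, the solvent, or in 100 nM periplocin, a cardiac glycoside from Cortex periplocae. The study states a single biological replicate, sample titles name the controls as blank where library names give DMSO, and no further treatment or modified allele is named for either line. The comparisons ask how the inhibitors and RB genes respond to periplocin in each line and how the lines differ. Library totals ran from 16381172 to 20622719 counts, and with 1 library per condition counting error is the only error a single pair of libraries gives. Every interval below is a 95% counting interval, every standard error (SE) is a counting SE, and no difference between conditions has a replicate check. The erythroid marker list was high in K562, with 9 of 9 markers above 3 counts in both K562 libraries and a summed level of 2086 CPM (each count as its part of the library, scaled by the trimmed mean of M values, TMM) in DMSO and 8638 in periplocin, against 11.2 and 8.69 CPM in THP-1. The monocytic and myeloid list summed to 1133 and 1026 CPM in THP-1 (9 and 8 of 9 markers above 3 counts) and to 93.7 and 84.5 CPM in K562, where MPO was at 0 in both libraries. The other marker lists summed to 0 to 8.85 CPM (T cell), 0.403 to 9.99 CPM (B cell) and, for fibroblast and epithelial genes, 134 and 292 CPM in K562 against 0.455 and 0.709 CPM in THP-1. Mitochondrially encoded genes took 5.62% of counts in K562 DMSO and 2.07% after periplocin, and 5.24% and 3.92% in THP-1.

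The genes lie on 9 chromosomes of GRCh38 in GENCODE release 29, and all counts are per gene, over whatever transcripts were present. CDKN1A (ENSG00000124762) lies at chr6:36676460-36687339 on the plus strand, and its longest coding transcript has 3 exons and encodes 164 amino acids. CDKN1B (ENSG00000111276, chr12:12715058-12722371, plus) encodes 198 amino acids and CDKN1C (ENSG00000129757, chr11:2883213-2885773, minus) 316. CDKN2A (ENSG00000147889, chr9:21967753-21995301) and CDKN2B (ENSG00000147883, chr9:22002903-22009363) are neighbours on the minus strand. CDKN2C (ENSG00000123080) lies at chr1:50960745-50974633 on the plus strand, and CDKN2D (ENSG00000129355) at chr19:10566462-10569059 on the minus strand. RB1 (ENSG00000139687, chr13:48303726-48599436, plus) has 27 exons and encodes 928 amino acids, RBL1 (ENSG00000080839, chr20:36996349-37095995, minus) 1068 and RBL2 (ENSG00000103479, chr16:53433977-53491649, plus) 1139.

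RefSeq start sites on GRCh38.p14 were matched by symbol for 9 of the 10 genes (13 windows), with none for CDKN1C. The 250 bases before a start are shown for CDKN1A, which had the largest difference in response between the lines. They are also shown for CDKN2C, the INK4 gene with the highest level, and for RBL1 and RBL2, RB relatives with opposite directions in K562. Capitals mark matches on either strand to GC boxes (GGGCGG) or to the E2F motifs TTTGGCGC, TTTCGCGC, TTTCCCGC and TTTGCCGC. The windows are chr6:36678464-36678713 (plus strand) for CDKN1A, chr1:50968456-50968705 (plus) for CDKN2C, chr20:37095998-37096247 (minus) for RBL1 and chr16:53434221-53434470 (plus) for RBL2.
CDKN1A: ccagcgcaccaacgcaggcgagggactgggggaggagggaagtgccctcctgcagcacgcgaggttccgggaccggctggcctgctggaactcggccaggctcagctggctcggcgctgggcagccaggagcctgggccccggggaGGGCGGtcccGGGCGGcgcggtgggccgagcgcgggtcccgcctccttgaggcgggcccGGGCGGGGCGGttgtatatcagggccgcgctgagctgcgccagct
CDKN2C: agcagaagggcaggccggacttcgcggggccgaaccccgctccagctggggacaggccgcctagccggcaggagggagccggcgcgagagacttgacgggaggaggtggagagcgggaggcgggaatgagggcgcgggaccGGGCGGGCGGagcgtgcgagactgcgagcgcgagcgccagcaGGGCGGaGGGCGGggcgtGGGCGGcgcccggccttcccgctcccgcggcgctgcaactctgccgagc
RBL1: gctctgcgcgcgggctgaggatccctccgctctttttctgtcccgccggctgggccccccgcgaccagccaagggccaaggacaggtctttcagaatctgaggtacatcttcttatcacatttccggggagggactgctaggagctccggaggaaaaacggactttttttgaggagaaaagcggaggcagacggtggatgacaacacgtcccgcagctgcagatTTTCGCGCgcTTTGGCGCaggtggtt
RBL2: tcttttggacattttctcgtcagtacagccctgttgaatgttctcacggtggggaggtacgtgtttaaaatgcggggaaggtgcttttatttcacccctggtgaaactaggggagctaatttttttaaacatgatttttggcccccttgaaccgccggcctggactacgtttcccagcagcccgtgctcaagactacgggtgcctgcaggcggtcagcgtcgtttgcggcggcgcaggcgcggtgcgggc
The CDKN1A window held 4 GC boxes, beginning at -104, -94, -45 and -40 from the start, the last pair overlapping by 1 base. The CDKN2C window held 5 GC boxes, of which the pair at -109 and -105 overlap. RBL1 held 2 E2F matches at -26 and -16 and no GC box, and the RBL2 window held no match to either. RBL1 was the 1 member of 9 with an E2F match in a window searched, but the RB1 window precedes an internal start (48476450) and the sequence before the first RB1 exon was not searched. Of all 34943 RefSeq windows of this length, 2.77% held an E2F match and 42.5% a GC box. Of the 13 member windows, which share genes, 1 held an E2F match and 7 (53.8%) a GC box, so the GC box share is not far from that of all windows. Of the remaining motifs searched, the E-box CACGTG (6.32% of all windows) was found before 2 other CDKN2C starts, and the CHR motifs TTTGAA and TTCGAA (14.4% of all windows) were found in no member window. A match describes the letters only.

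CDKN2A and CDKN2B had 0 counts in all 4 libraries, so 8 of the 10 genes could be compared. With 3 counts as the limit that a count of 0 allows, their level was under 0.152 to 0.177 CPM, depending on the library. At this depth neither transcript was detectable, in either line or treatment. The neighbouring genes on 9p21 were also low in K562. MTAP, which lies beside CDKN2A and encodes a methionine salvage enzyme, had 4 and 12 counts in K562 and 11 and 10 in THP-1 (DMSO, then periplocin). Further out, HACD4 had 0 and 3 counts in K562 against 1415 and 1877 in THP-1, and FOCAD had 16 and 13 against 969 and 494. HACD4 was thus at least 407-fold higher in THP-1 than in K562 in DMSO, taking 3 counts for the K562 library. KLHL9 had 2 to 4 counts in each library, DMRTA1 was at 0 in K562 and at 13 and 9 in THP-1, and ELAVL2 was at 0 in K562 and at 107 and 60 in THP-1. MLLT3 had 81 and 86 counts in K562 and 221 and 154 in THP-1. In K562, MLLT3 was thus the 1 neighbour of 7 above 16 counts, and in THP-1 KLHL9, MTAP and DMRTA1 were at 13 counts or fewer. DNA was not measured.

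**Figure D1:**
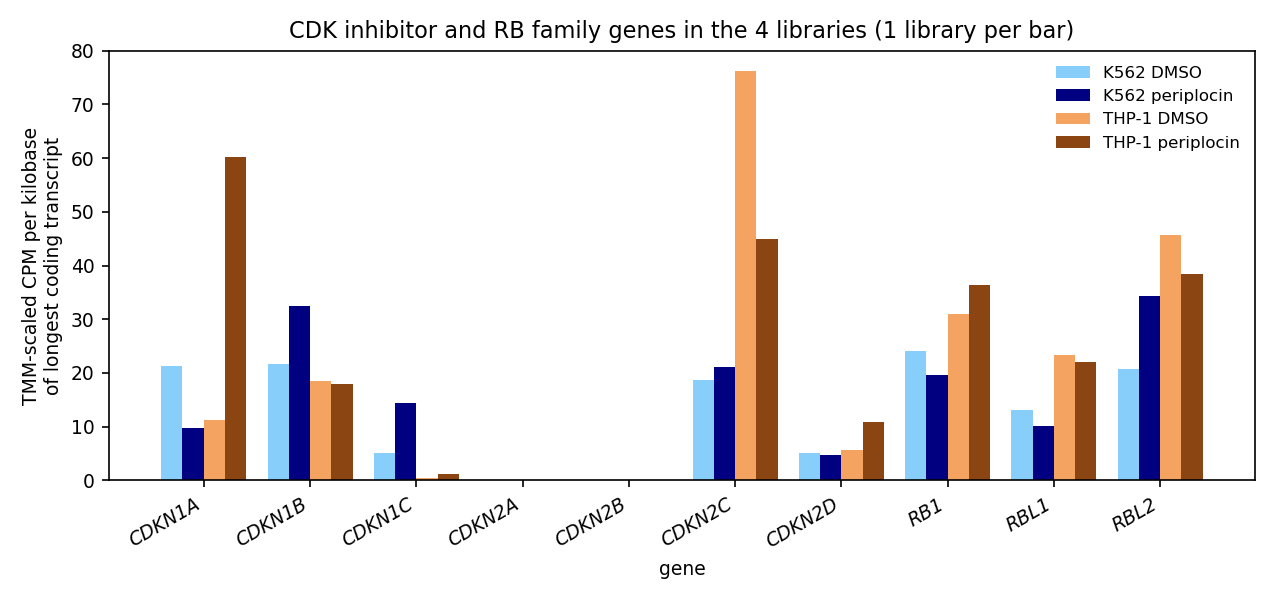
Level of the 10 genes as TMM-scaled CPM per kilobase of the longest coding transcript (vertical axis), with 1 bar per library and no error bar since there is 1 library per condition. CDKN1A is highest in THP-1 periplocin at 60.2, CDKN2C is highest in THP-1 DMSO at 76.2, and CDKN2A and CDKN2B are at 0 throughout.

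To compare genes with each other, levels were divided by transcript length and given as CPM per kilobase. In K562 DMSO the members were close together, with RB1 at 24.0, CDKN1B at 21.7, CDKN1A at 21.3, RBL2 at 20.8 and CDKN2C at 18.7, each overlapping the next in its counting interval. RBL1 followed at 13, and CDKN2D (5.03) and CDKN1C (4.99) could not be told apart at the bottom. In periplocin the K562 order was led by RBL2 (34.4) and CDKN1B (32.4), which overlapped, then CDKN2C (21.1) and RB1 (19.6), which overlapped, and CDKN1C (14.4) stood above RBL1 (10.1) and CDKN1A (9.80), which overlapped. In THP-1 DMSO the order was spread out and no neighbours overlapped, from CDKN2C at 76.2 through RBL2 at 45.6, RB1 at 31.0, RBL1 at 23.4, CDKN1B at 18.4, CDKN1A at 11.2 and CDKN2D at 5.69 to CDKN1C at 0.340. In THP-1 periplocin CDKN1A moved from the sixth place to the first at 60.2, above CDKN2C at 45.0, while RBL2 (38.5) and RB1 (36.4) overlapped. The order between genes also depends on the length taken for each.

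Counted over the members, periplocin gave 1 gene at least 2-fold higher (CDKN1C) and 1 at least 2-fold lower (CDKN1A) of 8 in K562, where 10.5% of all 12736 genes tested were higher and 13% lower. In THP-1, 2 of 8 were higher (CDKN1A and CDKN1C) and none lower, where 9.61% of 13367 genes were higher and 12.5% lower. In all, 25.0% of members passed 2-fold in each line, close to 23.5% and 22.1% of all genes. The members' median log2 fold change was 0.04 in K562 and 0.10 in THP-1, against -0.01 and -0.04 over all genes. The members' share is thus near the background. Of the 8, 4 (CDKN1A, CDKN2C, RB1 and RBL2) had opposite responses in the lines beyond counting error, which 19.4% of the 11672 genes had. Passing counting error depends on the number of counts, for which the 19.4% was not matched.

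CDKN1A was the member with the most unlike responses. In K562 it had 825 counts (48.3 CPM) in DMSO and 386 (22.2 CPM) in periplocin. In THP-1 it had 500 counts (25.3 CPM) in DMSO and 2308 (136 CPM) in periplocin. The single highest library was THP-1 periplocin, and the lowest was K562 periplocin. In K562 the level in periplocin was 2.18-fold lower than in DMSO, a log2 fold change of -1.12 (SE 0.09, interval -1.30 to -0.95). In THP-1 it was 5.39-fold higher, a log2 fold change of 2.43 (SE 0.07, interval 2.29 to 2.57), and 1.90% of all genes tested in that line were as far out in the same direction. The responses differed by 3.55 on the log2 scale (SE 0.11, interval 3.33 to 3.78), which is 11.7-fold. Of 11672 genes compared in both lines, 1.29% had a difference as large. CDKN1A was the 1 member of 8 that was at least 2-fold changed in both lines in opposite directions, a pattern that 228 of those genes (1.95%) had. Its K562 interval, -1.30 to -0.95, reaches inside the 2-fold line. The log2 fold change between the lines was -0.93 in DMSO (THP-1 1.91-fold lower) and 2.62 in periplocin (THP-1 6.14-fold higher), so the order of the lines was the other way round in periplocin. The monocytic and myeloid markers summed to 1133 CPM without and 1026 CPM with periplocin in THP-1, and their part in the CDKN1A level was not tested. The non-coding gene DINOL overlaps 146 bp (4.79%) of the CDKN1A exons on the opposite strand in the annotation. It is not among the genes of the table and the strand setting of the counts was not given in the sources used here, so its reads cannot be told apart from those of CDKN1A. In bulk RNA, fewer cells with a transcript and less of it per cell cannot be told apart.

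CDKN1C, the least abundant CIP/KIP transcript per length in every library but K562 periplocin, was higher in periplocin in both lines. It had 165 counts (9.67 CPM) in K562 DMSO and 483 (27.8 CPM) in K562 periplocin, against 13 (0.658 CPM) and 37 (2.19 CPM) in THP-1. Both K562 libraries were above both THP-1 libraries. The log2 fold change for periplocin was 1.52 in K562 (SE 0.13, interval 1.27 to 1.79, 2.87-fold) and 1.73 in THP-1 (SE 0.47, interval 0.79 to 2.77, 3.32-fold). The lower bound in THP-1 is under the 2-fold line, and the difference between the responses, 0.21 (interval -0.74 to 1.16), was within counting error. The summed erythroid markers also went from 2086 to 8638 CPM in K562, and their part in the CDKN1C level was not tested. Between the lines CDKN1C was 14.7-fold lower in THP-1 in DMSO (log2 fold change -3.88, interval -4.82 to -3.06) and 12.7-fold lower in periplocin (-3.67, interval -4.19 to -3.18).

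CDKN1B, which restrains CDK2 and whose protein level is mainly set by degradation, differed in K562 only within 2-fold. Its counts were 984 (57.7 CPM) and 1494 (86.0 CPM) in K562 and 968 (49.0 CPM) and 806 (47.6 CPM) in THP-1, DMSO before periplocin. The K562 periplocin library stood above the other 3. The log2 fold change was 0.58 in K562 (SE 0.06, interval 0.46 to 0.69, 1.49-fold) and -0.04 in THP-1, where the interval of -0.18 to 0.10 included 0. The responses differed by -0.62 (THP-1 minus K562, SE 0.09), and 42.2% of genes had a difference of that size or more.

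Per length, the 3 CIP/KIP genes summed to 48.0 CPM per kilobase in K562 DMSO and 56.5 in K562 periplocin, and to 29.9 and 79.2 in THP-1. The make-up of that sum differed between the lines after periplocin. In K562 the CDKN1A share was 44.4% in DMSO and 17.3% in periplocin, while the CDKN1B share was 45.2% and 57.3% and the CDKN1C share 10.4% and 25.4%. In THP-1 the CDKN1A share was 37.3% in DMSO and 75.9% in periplocin, the CDKN1B share 61.6% and 22.6%, and the CDKN1C share 1.14% and 1.43%. CDKN1B was thus the leading CIP/KIP transcript in 3 libraries, by less than counting error over CDKN1A in K562 DMSO, and CDKN1A led in THP-1 periplocin.

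**Figure D2:**
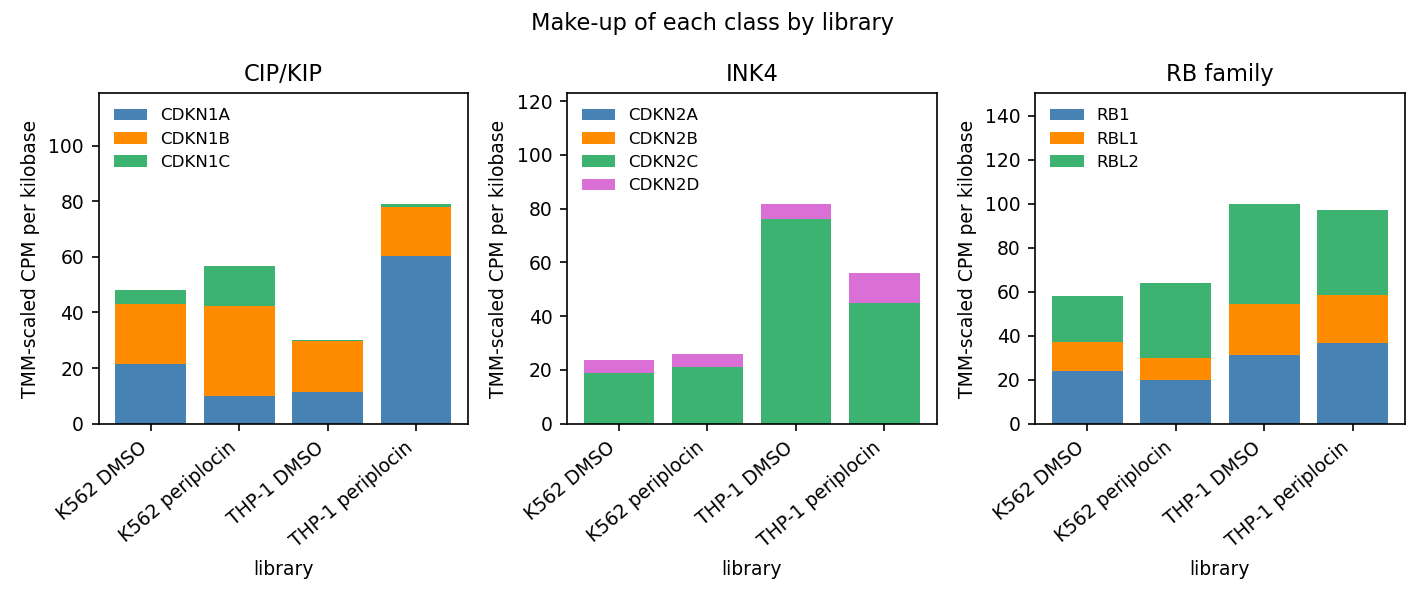
Summed level of each class in each library as TMM-scaled CPM per kilobase (vertical axes), stacked by gene, with 1 library per bar. In the CIP/KIP class CDKN1A makes up 75.9% of THP-1 periplocin and 17.3% of K562 periplocin, while CDKN2C makes up most of the INK4 class in every library.

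Among the INK4 genes, CDKN2C carried 78.8% to 93.0% of the class per length in the 4 libraries and CDKN2D the rest. In K562, CDKN2C had 928 counts (54.4 CPM) without and 1065 (61.3 CPM) with periplocin, and in THP-1 it had 4374 (221 CPM) and 2213 (131 CPM). Both THP-1 libraries were above both K562 libraries, and THP-1 DMSO was the highest. The log2 fold change for periplocin was -0.76 in THP-1 (SE 0.04, interval -0.83 to -0.68, 1.69-fold lower) and 0.17 in K562 (SE 0.06, interval 0.04 to 0.30). THP-1 was 4.07-fold above K562 in DMSO (log2 fold change 2.03, interval 1.92 to 2.13) and 2.13-fold above it in periplocin (1.09, interval 0.99 to 1.20). Scaled by total counts, the last value was 0.96 and lay under 2-fold.

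CDKN2D had 122 counts (7.15 CPM) and 117 (6.73 CPM) in K562, and 160 (8.10 CPM) and 263 (15.5 CPM) in THP-1. The THP-1 periplocin library was the high one and the other 3 were alike. The log2 fold change in THP-1 was 0.94 (SE 0.14, interval 0.65 to 1.23, 1.92-fold), just under the 2-fold line, and the interval in K562, -0.47 to 0.29, included 0. The INK4 total in THP-1 was 81.9 CPM per kilobase in DMSO and 56.0 with periplocin, against 23.8 and 25.8 in K562, so the total in THP-1 was lower in periplocin although CDKN2D was higher. Between the lines the CDKN2D interval included 0 in DMSO (-0.17 to 0.53), and THP-1 was 2.31-fold higher in periplocin.

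The 3 RB family genes stayed within 2-fold of DMSO in both lines. RB1 had 1966 counts (115 CPM) and 1631 (93.8 CPM) in K562, and 2936 (149 CPM) and 2954 (175 CPM) in THP-1, DMSO before periplocin. The K562 libraries were the lower pair. Its log2 fold change was -0.30 in K562 (SE 0.05, interval -0.39 to -0.20) and 0.23 in THP-1 (SE 0.04, interval 0.16 to 0.31). These are common sizes, since 34.9% of genes in K562 and 33.9% in THP-1 were as far out in the same direction. THP-1 was above K562 by 1.29-fold in DMSO and 1.86-fold in periplocin.

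The neighbours of RB1 on 13q14 did not all move with it. MED4, a Mediator subunit, had 579 and 568 counts in K562 and 915 and 744 in THP-1, with log2 fold changes of -0.05 and -0.07. ITM2B was higher in periplocin in both lines, with 1432 and 2328 counts in K562 (log2 fold change 0.67) and 4699 and 8566 in THP-1 (1.09). RCBTB2 had 163 and 81 counts in K562 (-1.04) and 391 and 590 in THP-1 (0.82), which is the same pair of directions as RB1. SUCLA2, a subunit of succinyl-CoA ligase, went the other way from RB1 in both lines, with 578 and 798 counts in K562 (0.44) and 926 and 697 in THP-1 (-0.19). LPAR6, which lies inside RB1 on the opposite strand and shares no exon with it, had 0 and 1 count in K562 and 165 and 94 in THP-1.

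RBL1 and RBL2 went in opposite directions in K562, while in THP-1 both had small log2 fold changes below 0. RBL1 had 1261 counts (73.9 CPM) and 994 (57.2 CPM) in K562 and 2625 (133 CPM) and 2130 (126 CPM) in THP-1, with log2 fold changes of -0.37 (SE 0.06, interval -0.49 to -0.25) and -0.08 (SE 0.04, interval -0.16 to 0.01). RBL2 had 1744 counts (102 CPM) and 2936 (169 CPM) in K562 and 4424 (224 CPM) and 3194 (189 CPM) in THP-1, with log2 fold changes of 0.73 (SE 0.04, interval 0.64 to 0.81, 1.65-fold) and -0.25 (SE 0.03, interval -0.31 to -0.18). RBL2 was therefore highest in THP-1 DMSO and lowest in K562 DMSO, and the periplocin libraries of the lines were close, at 1.12-fold apart. The difference between the lines in RBL2 was 2.19-fold in DMSO. RBL1 was higher in THP-1 by 1.80-fold in DMSO and 2.20-fold in periplocin. Within the RB family per length, the RBL2 share went from 36.0% to 53.7% in K562 while RB1 went from 41.5% to 30.6% and RBL1 from 22.5% to 15.7%. In THP-1 the RBL2 share was 45.6% in DMSO and 39.6% in periplocin, RB1 was at 31.0% and 37.5%, and RBL1 stayed at 23.4% and 22.8%. The same limit of strand holds for RBL1, which overlaps AL136172.1 on the opposite strand over 211 bp (3.54% of its exons), and for RBL2, which overlaps AC007342.6 over 721 bp (9.85%) and AKTIP over 610 bp (8.33%). AL136172.1 and AC007342.6 are not in the table. AKTIP had 217 and 120 counts in K562 and 143 and 66 in THP-1, far fewer than RBL2.

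**Figure D3:**
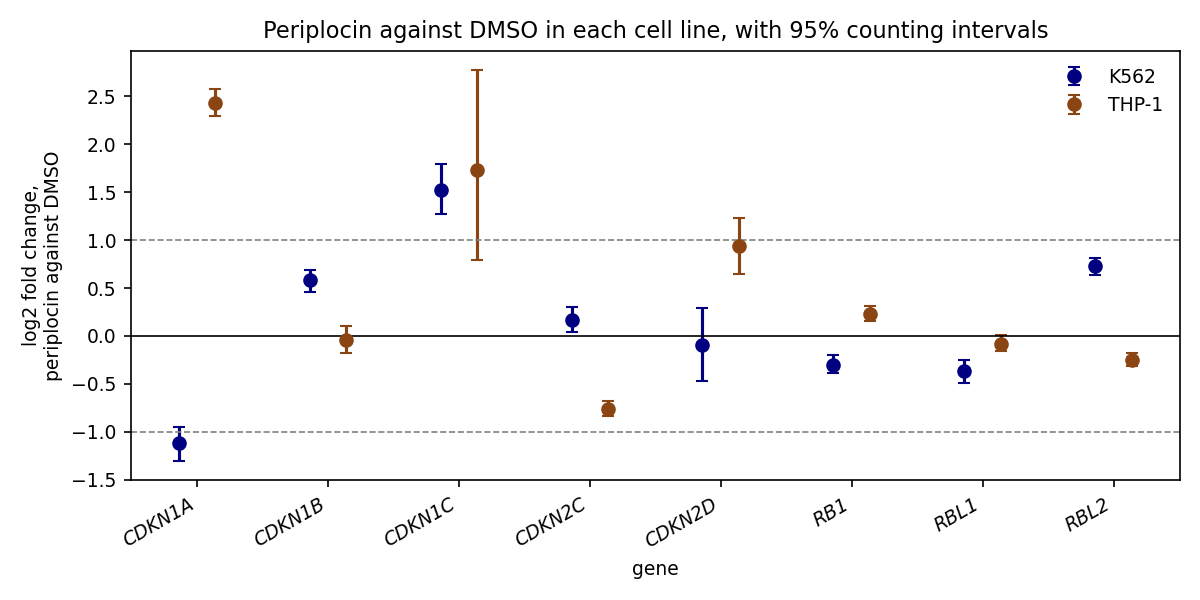
Log2 fold change of periplocin over DMSO (vertical axis) for the 8 genes with counts, in K562 (dark blue) and THP-1 (brown), from 1 library per condition. Bars are 95% counting intervals and dashed lines mark 2-fold. CDKN1A lies at -1.12 in K562 and 2.43 in THP-1, CDKN1C is above 1 in both lines, and the RB family lies within the dashed lines.

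Between the lines, 2 of 8 members were at least 2-fold higher in THP-1 in DMSO (CDKN2C and RBL2) and 1 was lower (CDKN1C), where 25.1% of 13974 genes were higher and 22.1% lower. In periplocin 4 were higher (CDKN1A, CDKN2C, CDKN2D and RBL1) and CDKN1C was again lower, where 26.4% of 13944 genes were higher and 24.1% lower. CDKN1B was lower in THP-1 by 1.18-fold in DMSO and 1.80-fold in periplocin, and RB1 also stayed under 2-fold. The members' median log2 fold change was 0.27 in DMSO and 0.99 in periplocin, against 0.04 and -0.04 over all genes. Scaling by total counts moved the median of all genes by -0.12 in DMSO and -0.14 in periplocin. Scaled so, CDKN1A in DMSO was at -1.05 and past 2-fold.

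**Figure D4:**
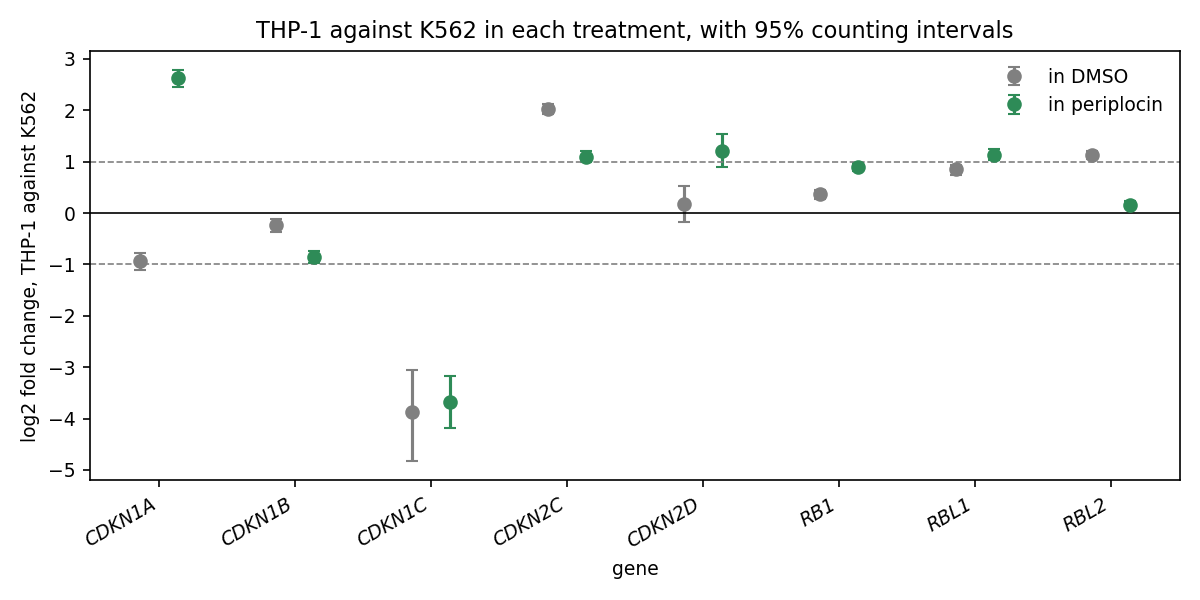
Log2 fold change of THP-1 over K562 (vertical axis) for the 8 genes with counts, in DMSO (grey) and in periplocin (green), from 1 library per condition. Bars are 95% counting intervals and dashed lines mark 2-fold. CDKN1C is low in THP-1 in both treatments, CDKN2C is high in both, and CDKN1A moves from -0.93 to 2.62.

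The only fit with any residual error took the 4 libraries together with cell line and treatment as terms in edgeR's quasi-likelihood test over 13584 genes. Its error, on 1 residual degree of freedom, is how far the lines differ in response. For the cell line term 3 of 8 members had an adjusted p under 0.05, where 37.3% of all genes did. CDKN1C was lower in THP-1 (log2 fold change -3.75, edgeR adjusted p = 0.00347), CDKN2C was higher (1.56, adjusted p = 0.0193) and RBL1 was higher (0.99, adjusted p = 0.0349). Over 4 alternative fits their adjusted p lay between 1.6e-06 and 0.00456, between 0.000466 and 0.0262, and between 0.0135 and 0.0448. The remaining 5 members were at adjusted p of 0.128 to 0.532. For the treatment term 0 of 8 members and 0 of all genes (0%) were called by edgeR, although 1753 genes had an unadjusted p under 0.05, and DESeq2 called 126 genes and no member. CDKN1C came nearest among the members, with a log2 fold change of 1.60, an unadjusted edgeR p of 0.0122 and an adjusted p of 0.353 (0.342 to 0.392 over the alternatives). CDKN1A, whose lines went in opposite directions, had an adjusted p of 0.785 in this edgeR fit.

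The genes around the inhibitors were read from lists written from general knowledge, but with earlier results of these data known. The medians of these lists stand against -0.01 in K562 and -0.04 in THP-1 over all genes. Counts of list genes past 2-fold stand against 10.5% higher and 13% lower of all genes in K562, and 9.61% and 12.5% in THP-1. Of the E2F, DP and DREAM list, the partners of the RB proteins, 0 of 17 genes reached 2-fold in either line, with median log2 fold changes of 0.02 in K562 (-0.02 under scaling by total counts without mitochondrially encoded genes) and -0.13 in THP-1. E2F4, the usual partner of RBL2, had 1940 counts in K562 DMSO and 3927 in K562 periplocin, a log2 fold change of 0.99 (SE 0.04), just under 2-fold. The DREAM subunit LIN52 was at 0.82 and the repressor E2F7 at -0.41 in K562. In THP-1 the 3 farthest of those with a mean of at least 10 CPM were MYBL2 (-0.67), the activator E2F1 (-0.56) and its partner TFDP1 (-0.54).

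Of the kinases and cyclins that the inhibitors bind, 1 of 11 was at least 2-fold higher and 2 were lower in K562, with a median of -0.01, and 0 were higher and 2 of 12 lower in THP-1, with a median of -0.38 (-0.22 when the mean had to reach 1 CPM). These counts are near the shares of all genes. CCND1, a partner of CDK4 and CDK6, had 1365 counts in K562 DMSO and 186 in K562 periplocin, a log2 fold change of -2.90 (SE 0.11). The mitotic cyclin CCNB1 had 1429 and 4298 counts there (1.56) and CCNE2, a partner of CDK2, 394 and 180 (-1.16). In THP-1 CCNE1 had 488 and 163 counts (-1.36), CDK4, a target of the INK4 proteins, had 2723 and 1330 (-0.81), and CCNE2 was at -0.77. The remaining gene past 2-fold, named after its values were seen, was the germline cyclin CCNA1, with 217 and 51 counts in THP-1 (-1.87) and 0 and 2 in K562. Both CDK4 and CDKN2C were thus lower in THP-1 periplocin, by 1.75-fold and 1.69-fold.

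Of 24 known regulators of the inhibitors, 2 were at least 2-fold higher and 0 lower in K562 (median 0.31), and 2 were higher and 1 lower in THP-1 (median 0.11), no more higher than the share of all genes. RNF123 and UBAC1, which form the KPC ligase that degrades CDKN1B protein, were the higher pair in K562, RNF123 at 32.9 and 79.5 CPM (1.27) and UBAC1 at 261 and 552 CPM (1.08). MYC, which represses CDKN1A and CDKN2B transcription, had 5889 counts in THP-1 in DMSO against 1024 in periplocin (log2 fold change -2.30, 4.92-fold lower) and 5322 and 2889 in K562 (-0.91). KLF6 (1.08) and KLF4 (1.05), zinc finger factors known to activate CDKN1A, were the higher pair in THP-1. MYC was lower in both lines, while CDKN1A was higher in THP-1 and lower in K562. The part of MYC, KLF4 and KLF6 in the CDKN1A level was not tested.

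In the list of p53 targets other than CDKN1A, 3 of 20 genes were at least 2-fold higher and 3 lower in K562 (median -0.30), beside 10.5% and 13% of all genes, and 6 of 23 were higher and 2 lower in THP-1 (median 0.36), beside 9.61% and 12.5%. SESN2 and TNFRSF10B, which stress pathways other than p53 also induce, were the lowest in K562, with 6525 and 1556 counts (-2.09) and 1463 and 373 counts (-2.00). TP53INP1 was higher in both lines, at 37.2 and 101 CPM in K562 (1.45) and at 6.33 and 26.4 CPM in THP-1 (2.06). BTG2, an antiproliferative gene, had 666 and 2127 counts in THP-1 (1.90), whereas the exonuclease gene AEN had 543 and 188 (-1.31). Named after their values were seen, the others past 2-fold were BTG2 (1.12), CCNG1 (1.07) and PLK3 (-1.06) in K562, and TIGAR (1.26), FAS (1.21), TNFRSF10B (1.09), ZMAT3 (1.02) and FDXR (-1.82) in THP-1. Past 2-fold in both lines were TNFRSF10B, with 873 and 1588 counts in THP-1 and the directions of CDKN1A, and BTG2 and TP53INP1, higher in both. SESN2, PLK3, ZMAT3, SESN1, XPC, RRM2B and POLH had the signs of CDKN1A, with at least 1 line under 2-fold. Some of these values were near 0 (RRM2B at -0.02 in K562 and POLH at 0.08 in THP-1). The rest of the genes tested in both lines did not have those signs. MDM2, GADD45A, BBC3, BAX, FDXR, DDB2, AEN and TRIAP1 were lower in both lines. Some of these were also near 0 (TRIAP1 at -0.01 in K562 and BBC3 at -0.03 in THP-1). CCNG1 and PPM1D, like BTG2 and TP53INP1, were higher in both.

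Of 24 S phase genes under E2F control, 0 were at least 2-fold higher and 4 lower in THP-1, where 12.5% of all genes were lower, with a list median of -0.58. In K562 0 were higher and 2 lower, with a median of 0.03 that was -0.01 when scaled by total counts without mitochondrially encoded genes. RRM2, the ribonucleotide reductase subunit of dividing cells, was the farthest in both lines, with 4505 and 1563 counts in K562 (-1.55) and 2765 and 623 counts in THP-1 (-1.93). The uracil glycosylase UNG had 1366 and 346 counts in THP-1 (-1.76), and CCNA2 was at 0.78 in K562. The replication licensing gene CDT1, named after its values were seen, had 3196 and 1355 counts in THP-1 (-1.01). RBL1, an E2F target outside this list, was at -0.37 in K562 and -0.08 in THP-1.

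**Figure D5:**
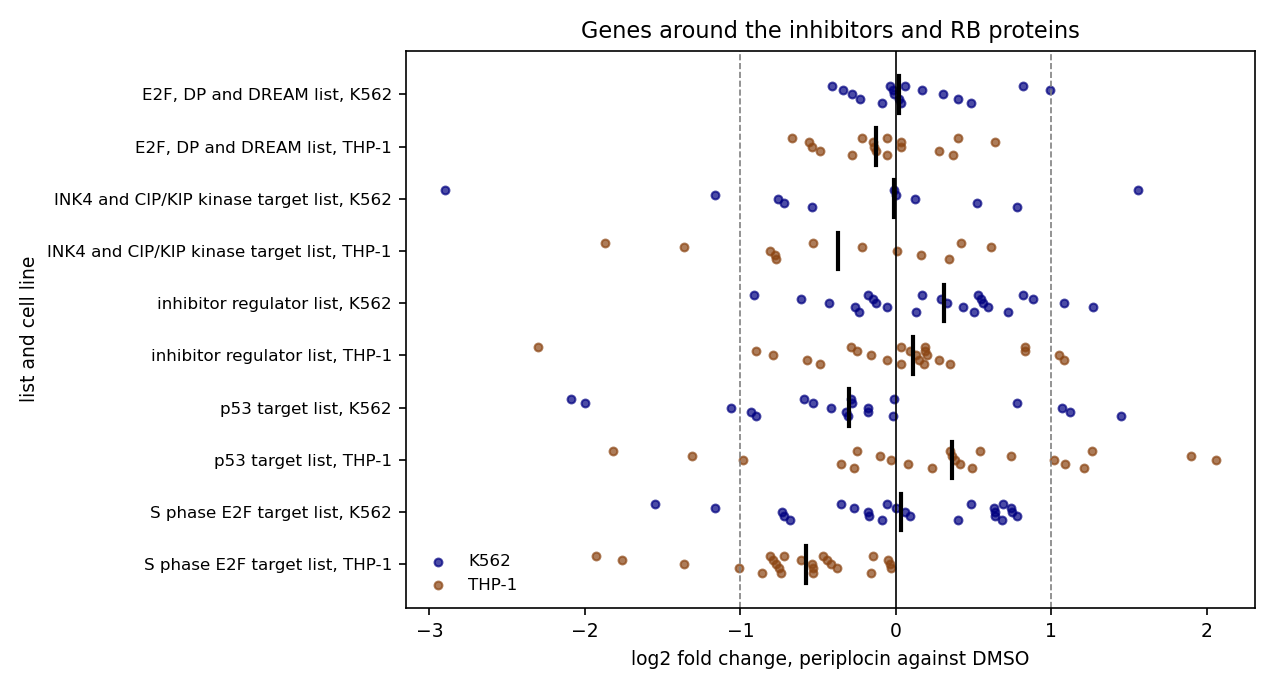
Log2 fold change of periplocin over DMSO (horizontal axis) for each gene tested in the 5 lists, K562 in dark blue and THP-1 in brown, from 1 library per condition. Each point is a gene, black bars are list medians and dashed lines mark 2-fold. The S phase list has its median at -0.58 in THP-1 and 0.03 in K562 (-0.01 when scaled by total counts without mitochondrially encoded genes), and the p53 target list at 0.36 and -0.30.

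Over the 9790 genes whose mean reached 10 CPM, likeness to CDKN1A and CDKN1C was measured as the Euclidean distance between centred log2(CPM + 0.5) values over the 4 libraries. The nearest to CDKN1A were OAS3 (distance 0.19), TLR6 (0.54) and ACSL1 (0.55). OAS3 had 731 and 405 counts in K562 and 516 and 2328 in THP-1, almost the counts of CDKN1A itself. The nearest to CDKN1C were HSPA1A (0.19), ZNF280A (0.27) and H2AC25 (0.31). HSPA1A had 4940 and 11922 counts in K562 and 550 and 1138 in THP-1, and has near-identical copies whose reads may have been split. The distances rest on 4 libraries that all genes share.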

How the data were processed

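The authors made poly-A libraries and deposited 1 table of expected counts for each gene in each library, not normalized. The submitters' processing notes name HISAT2, StringTie 1.3.1 and hg38, without their roles. The methods name the T7 platform and the labels an Illumina one. Of the 20348 genes, 20310 have a symbol; 0 columns were left unused. From 87.4% to 88.3% of values were exactly whole (no tolerance).

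Expected counts were rounded to whole numbers and scaled with TMM factors over the 4 libraries (edgeR 4.0.16, R 4.3.3). With 1 library per condition, each pair was described by a log2 ratio with an exact conditional binomial 95% interval, which covers counting error only, over genes with at least 10 counts in 1 library. Called meant at least 2-fold. A count under 3 was set to 3. Differences of response had a normal interval on the log scale. Libraries were also fitted together with edgeR's quasi-likelihood test (at least 10 counts in 2 libraries, Benjamini-Hochberg) and DESeq2 1.42.0 as the alternative. The fits and ratios were tested on simulated data in which seeded genes changed alike in both lines. The simulated spread was set lower than that of the real fit. The simulation therefore does not show how well changes are found in these data. Levels between genes were divided by the longest coding transcript in GENCODE release 29, with exact Poisson intervals.

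Named genes were the members, in each list the 3 with the largest change in each line at a mean of at least 10 CPM, the neighbours (1 of them is not reported here), and the 3 nearest genes. The members and lists were chosen with earlier results of these data known. Alternatives were other scalings, filters, the unrounded counts and a fold of 1.5. Flow cytometry, blots and docking were not analysed here. Python 3.11.15 with numpy 2.4.6, pandas 2.3.3, scipy 1.17.1 and matplotlib 3.10.9 was used.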

Additional observations from a re-analysis of the deposited data

Results flagged for a closer look

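The response to periplocin had opposite signs in the lines, beyond counting error, for 4 of 8 members, a pattern that 19.4% of 11672 genes had. The THP-1 response minus the K562 response was 3.55 for CDKN1A (-1.12 in K562 and 2.43 in THP-1), -0.93 for CDKN2C (0.17 and -0.76), 0.53 for RB1 (-0.30 and 0.23) and -0.97 for RBL2 (0.73 and -0.25), on the log2 scale. Each rests on 1 library per condition, so the difference itself was not tested. Of the 11672 genes, 1.29% had a difference as large as that of CDKN1A. The share was 26.2% for CDKN2C, 48.7% for RB1 and 24.8% for RBL2. Passing counting error also depends on the number of counts, for which the 19.4% was not matched.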

How the results depend on the processing

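No member fold change or response difference changed sign under the alternatives. Scaled by total counts without mitochondrially encoded genes, the K562 medians for periplocin went from 0.02 to -0.02 in the E2F, DP and DREAM list and from 0.03 to -0.01 in the S phase list, and the median of p53 targets for THP-1 against K562 in periplocin went from 0.01 to -0.10 (-0.13 by total counts). Of 32 counts of members past a threshold, 30 stayed within 1.5 times the reported count. With a fold of 1.5 in place of 2, the members called were 4 for periplocin in THP-1 and 5 for THP-1 against K562 in DMSO, of 8 each, where 18.5% of all genes were higher and 23.0% lower, and 33.3% higher and 30.7% lower. In the 4-library fit, DESeq2 called 126 genes for the treatment term (73 higher, 53 lower) where edgeR called 0, and gave 1844 genes no adjusted p. Of 224 member fold changes under the alternatives, 208 stayed inside the counting interval, and all 56 recomputed response differences did. No library could be left out, since each condition has 1. The labels give no replicate numbers, and the fit over 4 libraries, with cell line as a term, is the 1 paired comparison. Low counts limited the comparison of CDKN1C in THP-1, at 13 and 37 counts. CDKN2A and CDKN2B, at 0, could not be compared, and the reason for their 0 was not tested.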
